A study of Mus musculus with 6 samples.

Results

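The comparison described here sets the cochlea of noise-exposed, saline-injected mice, taken 12 h after the exposure, against the cochlea of unexposed mice. Its members are the genes measured well above background on both arrays, 24285 of 37318 genes on the array. In the saline 12 h group, female C57BL/6 mice aged 6 weeks were exposed to intense noise for 2 h and injected intraperitoneally with saline directly afterwards. The baseline group was of the same strain, sex and age and received neither noise nor dexamethasone, and the labels do not say whether it was injected. The other 4 arrays of the study came from mice after noise only, and from mice taken 12 h or 24 h after noise with dexamethasone, a synthetic glucocorticoid, at 10 mg/kg, or 24 h after noise with saline. The design gives 6 mice per group and 1 array per group, and the labels do not say whether the mice of a group share that array as a pool.

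The cochlea is the hearing organ of the inner ear. Its hair cells turn sound into transmitter release onto the spiral ganglion neurons, and the stria vascularis in its lateral wall pumps potassium into the fluid that bathes them. Intense noise injures hair cells, their synapses and the lateral wall, and is known to be followed by chemokine release and the entry of monocytes into the cochlea. The comparison addresses which transcripts differ from the unexposed ear at 12 h after noise without glucocorticoid.

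Levels are given as scaled signals, on which the 75th percentile of each array's probes is 100, and differences are log2 values of saline 12 h minus baseline. With 1 array per group no difference has a replicate check and no p-value is given. The interval after a fold is the 95% interval from the scanner software's spot error and covers that error only. A gene above background on a single array is given as at least N-fold. Probes well above background made up 70.3% of the saline 12 h array and 67.9% of the baseline array, and the 75th percentile lay at 537 intensity units in the saline 12 h array and 643 in the baseline array. The 2 arrays lay on different slides and scans, the saline 12 h array beside dexamethasone 12 h and the baseline array beside the other 3, and the effect of slide cannot be told apart from that of group. Genes that mark the cochlea were present on both arrays: the scaled signal of the extracellular matrix gene Coch was 5013 in saline 12 h against 5812 in baseline, that of the gap junction gene Gjb2 2184 in saline 12 h against 2986 in baseline and that of the hair cell gene Otof 418 in saline 12 h against 415 in baseline. The outer hair cell motor gene Slc26a5 was above background on neither array.

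Of the 24285 genes, 1072 (4.41%) were at least 2-fold higher 12 h after noise and 831 (3.42%) at least 2-fold lower, together 7.84%. At least 4-fold apart were 158 higher and 88 lower genes, and at least 10-fold 35 and 14. A further 311 genes above background only in the saline 12 h array were higher by a bound of at least 2-fold, and 183 above background only in the baseline array were lower by such a bound. The differences of all measured genes had a median of 0.06, and ran from -0.86 at the 5th percentile to 0.95 at the 95th, while the median spot error of a difference was 0.20. Where a 2-fold gene had other measured probes, all of them had its direction in 316 of 447 genes (70.7%).

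Directions are relative to the array as a whole. Scaling on the added E1A spike-in RNA lowered every difference by 0.80, which took the median of all genes to -0.74 and left 237 genes higher and 7143 lower (3.21% of the called genes higher, against 56.3% on the percentile scale and 45.4% after quantile normalization). That shift rests on 8 spike-in probes, whose unscaled differences ran from 0.06 to 0.89 around a median of 0.54. Counts and signs on the spike-in scale share that uncertainty. Of the 59 lists described below, 39 had a median above 0; on the spike-in scale 32 of these 39 turned negative, and the 7 that did not were the interferon, cerebellar, fast and slow muscle, gland, keratin and cornified lists. Under quantile normalization 11 of the 39 turned negative. List counts below compare with 4.41% of all genes at least 2-fold higher, 3.42% at least 2-fold lower and 55.2% above baseline.

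**Figure D1:**
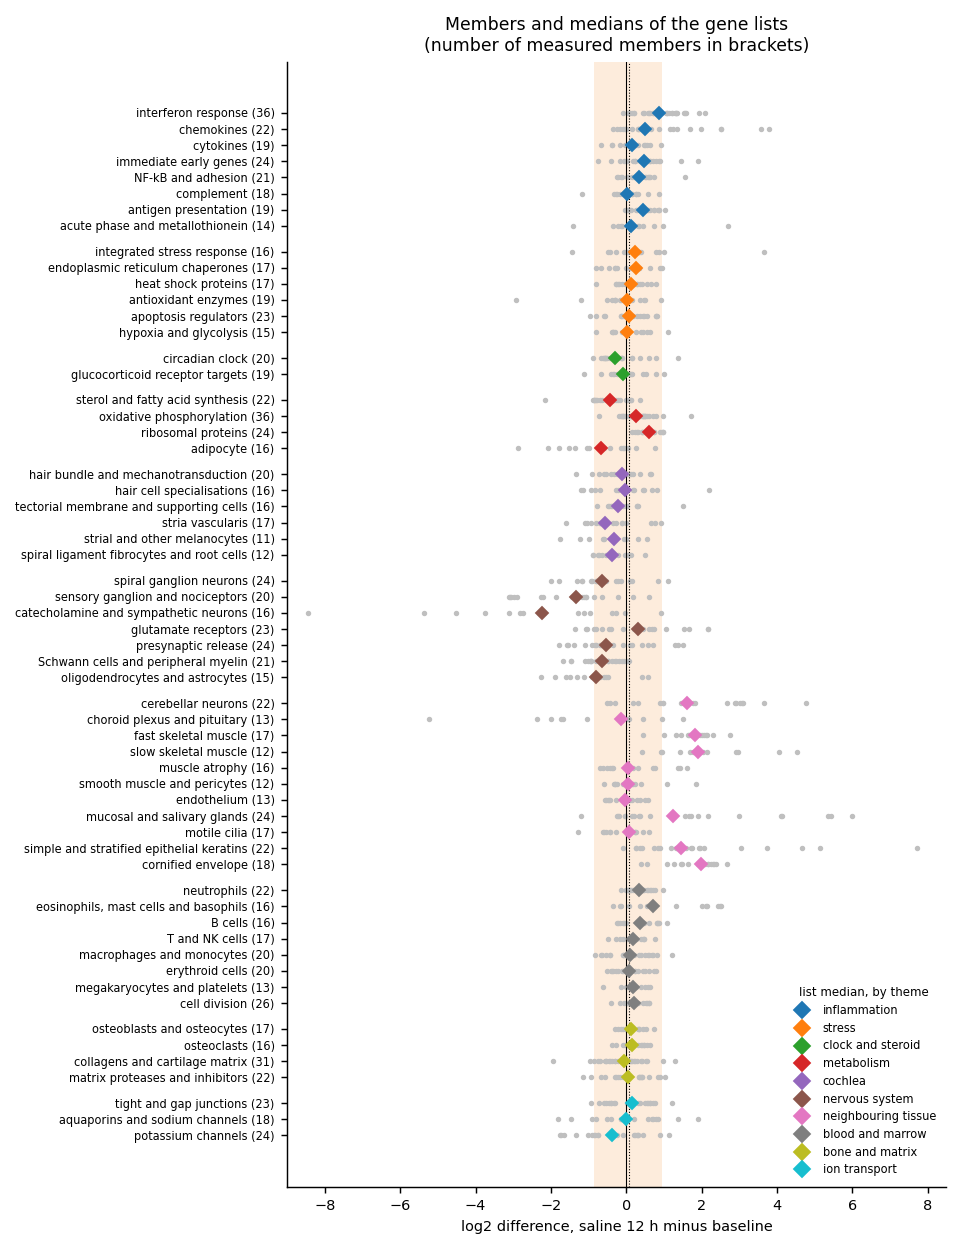
Log2 differences of saline 12 h minus baseline for the members (grey points, 1 array per group) and medians (diamonds, coloured by theme) of 59 gene lists, with the number of measured members in brackets. The shaded band runs from the 5th to the 95th percentile of all measured genes and the dotted line marks their median of 0.06. The medians of the skeletal muscle, keratin, cornified envelope, cerebellar and gland lists lie to the right of the band, and those of the catecholamine and nociceptor lists to its left.

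Genes of the antiviral interferon response were higher in the saline 12 h cochlea almost throughout. Interferons signal through receptors on the cell surface to transcription factors that bind a DNA element called ISRE in front of the genes they switch on. Of 36 measured genes of the list, 15 were at least 2-fold higher and 0 lower, against 4.41% higher among all genes, and 35 lay above baseline, Oas3 being the exception at -0.09. The list median was 0.86, against 0.06 for all genes, and 0.07 on the spike-in scale. The antiviral GTPase gene Mx2 had a scaled signal of 158 in the saline 12 h array, against 36.9 in the baseline array, and was 4.29-fold higher (3.24 to 5.67). Its relative Mx1 had 96.0 in saline 12 h against 31.7 in baseline and the translation inhibitor gene Ifit3 883 in saline 12 h against 229.9 in baseline. Usp18, which takes the ubiquitin-like ISG15 off proteins and dampens interferon signalling, had 252 in saline 12 h against 85.7 in baseline, and the nucleic acid sensor gene Zbp1 121 in saline 12 h against 41.5 in baseline. Irf7, which encodes a transcription factor that amplifies the response, had 2259 in saline 12 h against 889 in baseline and was 2.54-fold higher (1.93 to 3.35). On the other arrays the list median over baseline was 0.19 for dexamethasone 12 h, 1.15 for noise only, 1.21 for saline 24 h and 0.60 for dexamethasone 24 h; all these differences share the 1 baseline array.

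Promoter stretches of 8 interferon genes and Cxcl10 are printed next, to show the ISRE letters in genes that differed and in 2 that did not. They come from RefSeq promoters of GRCm38.p6, which run from 250 bases before to 50 after a gene's start, and the genes were chosen after their values were seen. The letters searched were GAAA, any 2 bases and GAAA again, on both strands, and matches, overlapping ones included, are in capitals.
Ifit3: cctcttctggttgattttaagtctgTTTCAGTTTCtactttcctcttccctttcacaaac
Gbp2: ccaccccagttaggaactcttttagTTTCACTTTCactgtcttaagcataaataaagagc
Oas1a: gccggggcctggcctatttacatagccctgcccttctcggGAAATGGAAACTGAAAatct
Ifit1: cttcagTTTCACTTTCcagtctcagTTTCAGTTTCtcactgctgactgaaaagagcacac
Rsad2: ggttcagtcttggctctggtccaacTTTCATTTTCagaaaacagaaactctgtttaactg
Isg15: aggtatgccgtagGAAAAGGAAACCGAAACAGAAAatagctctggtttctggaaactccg
Bst2: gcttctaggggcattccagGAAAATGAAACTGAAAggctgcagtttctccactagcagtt
Gbp5: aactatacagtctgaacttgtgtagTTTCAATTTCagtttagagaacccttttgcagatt
Cxcl10: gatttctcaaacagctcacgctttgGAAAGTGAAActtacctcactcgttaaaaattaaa
The stretches lie at chr19:34583382-34583441, plus strand for Ifit3, at chr3:142620579-142620638, plus strand for Gbp2, at chr5:120907526-120907585, minus strand for Oas1a, at chr19:34640779-34640838, plus strand for Ifit1 and at chr12:26456538-26456597, minus strand for Rsad2. Those of Isg15, Bst2, Gbp5 and Cxcl10 lie at chr4:156200850-156200909, minus strand, at chr8:71537562-71537621, minus strand, at chr3:142496744-142496803, plus strand and at chr5:92349068-92349127, minus strand. The first 6 genes were higher by log2 differences of 1.94, 1.33, 1.32, 1.30, 1.14 and 1.09 in that order, while Bst2 and Gbp5 stood at 0.15 and 0.09. The letters were present in 18 of the 28 list members with a promoter (64.3%), against 3.99% of 27025 promoters of all genes and 3.77% of those of measured genes. Among genes at least 2-fold apart that had a promoter, they were present in 6.85% of 555 higher and 4.32% of 486 lower genes. The higher genes here include the interferon list members past 2-fold, so this share is not separate from the list. Within the list, 8 of 10 members at least 2-fold higher and 10 of the 18 others held them, and the median difference was 0.89 with and 0.74 without them. A match is a description of the letters and shows no binding.

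The widest differences among chemokine genes were in ligands that attract monocytes. Of 22 measured chemokine genes 9 were at least 2-fold higher and 0 lower, against 4.41% and 3.42% of all genes. Their median of 0.51 turned to -0.29 on the spike-in scale. The monocyte attractant gene Ccl7 had a scaled signal of 229 in the saline 12 h array, against 16.5 in the baseline array, 13.9-fold higher (10.4 to 18.5), and its probe lies on chromosome 11, 81860656 to 81860715 in mm9. Ccl2, another ligand of the monocyte receptor CCR2, had 467 in saline 12 h against 39.3 in baseline, and the related Ccl12 201 in saline 12 h against 35.2 in baseline. The T cell attractant Cxcl10 had 437 in saline 12 h against 76.7 in baseline and was 5.7-fold higher (4.31 to 7.52). The neutrophil attractant Cxcl1 (35.5 in saline 12 h against 8.96 in baseline) and the macrophage product Ccl4 (67.2 in saline 12 h against 20.9 in baseline) were 3.96-fold and 3.21-fold higher. Of these 6, Ccl4 alone was less than 2-fold higher on the spike-in scale, at 0.89.

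Cytokine genes did not follow the chemokines. Of 19 measured, 0 were 2-fold higher and 0 2-fold lower, and the median was 0.14 (-0.66 on the spike-in scale). The inflammatory Il1b was the highest at 0.93 (60.9 in saline 12 h against 31.9 in baseline), and the alarmin gene Il33 the lowest at -0.66 (93.8 in saline 12 h against 149 in baseline). Il6, not well above background in the baseline array, was at least 2.75-fold higher, at a scaled signal of 6.9 in saline 12 h against 1.85 in baseline.

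The rapid transcription factors of the immediate early list lay slightly above baseline as a group, with a median of 0.46 that turned to -0.34 on the spike-in scale, and 2 of 24 at least 2-fold higher. Egr4 had 28.8 in saline 12 h against 7.62 in baseline and the stress-induced Atf3 114 in saline 12 h against 41.4 in baseline, 3.78-fold (2.76 to 5.16) and 2.76-fold (2.09 to 3.65) higher. Below the 2-fold line were Egr3 at 0.89, Fos at 0.87, Junb at 0.79 and Egr1 at 0.24, the second Junb probe lying on the other side of 0. Fosl1, which encodes a Fos relative, was above background only in the saline 12 h array and at least 3.64-fold higher. Arc, a gene of active neurons, was the lowest at -0.75 (52.0 in saline 12 h against 87.5 in baseline).

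Signalling genes of the NF-kB pathway, which relays inflammatory signals, and adhesion molecules had a median of 0.33 (-0.47 on the spike-in scale). Of 21 genes 1 was at least 2-fold higher, near the 4.41% of all genes. That gene was Tnfrsf12a, the receptor of the cytokine TWEAK, at 746 in saline 12 h against 252 in baseline and 2.96-fold higher (2.25 to 3.91). Prostaglandin synthase Ptgs2 stood at 0.74, the NF-kB subunit gene Relb at 0.64, the adaptor Myd88 at 0.60 and the receptor Tlr2 at 0.59. Antigen presentation genes were shifted together: 18 of 19 lay above baseline, against 55.2% of all genes. Their median was 0.44 (-0.36 on the spike-in scale), but 1 gene reached 2-fold. It was the immunoproteasome subunit gene Psmb8 (551 in saline 12 h against 271 in baseline), followed by the subunits Psmb10 at 0.87 and Psmb9 at 0.85 and the peptide transporter Tap1 at 0.87. The class I gene H2-D1 and its regulator Nlrc5 stood at 0.73 and 0.73.

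Complement genes showed no shared direction, with 9 above and 9 below baseline and a median of 0.02 (-0.78 on the spike-in scale). The alternative pathway gene Cfb stood at 0.87 (142 in saline 12 h against 77.6 in baseline), and C3ar1, the receptor of a C3 fragment, was the gene 2-fold lower (5.21 in saline 12 h against 11.7 in baseline). In the acute phase list the serum amyloid genes stood apart. Saa2 had 39.0 in saline 12 h against 6.00 in baseline and was 6.51-fold higher (4.57 to 9.27), and Saa3 was at least 14.1-fold higher at 35.4. Saa1 stood at 0.97; the members of this family are near-identical, so their probes can share signal. Serpina3n, a protease inhibitor gene, was 2.68-fold lower (9.38 in saline 12 h against 25.1 in baseline), and the metallothionein gene Mt2 stood at -0.34.

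**Figure D2:**
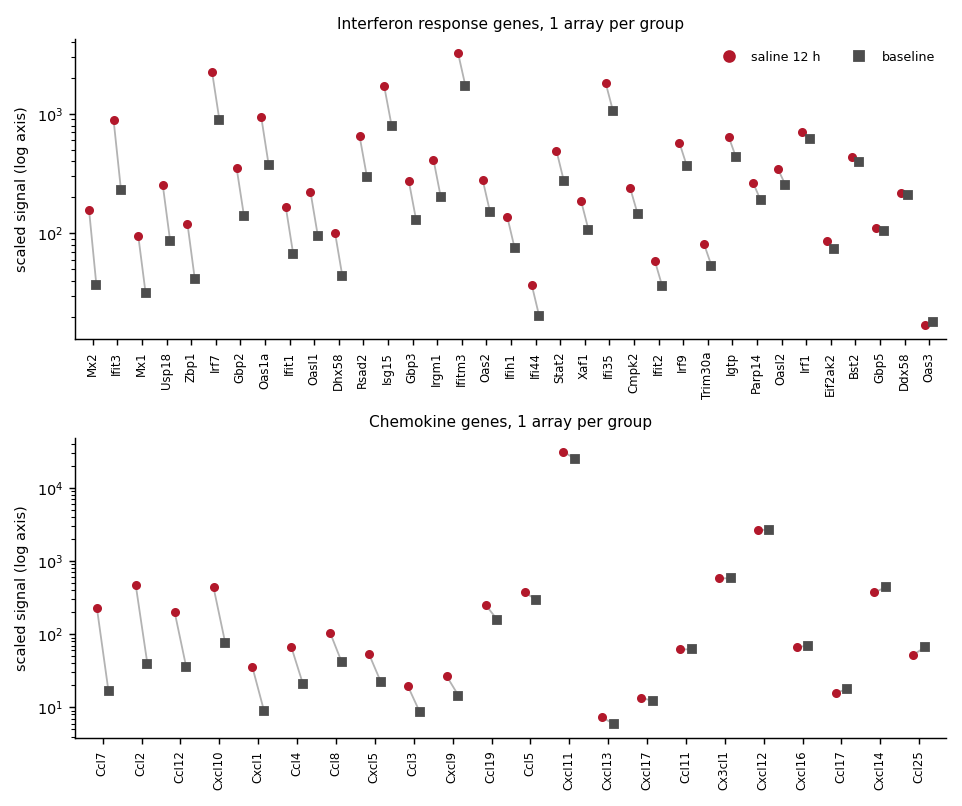
Scaled signal (log axis, 75th percentile of each array = 100) of measured interferon response genes (top) and chemokine genes (bottom) in the saline 12 h array (circles) and the baseline array (squares), 1 array per group, genes ordered by difference. Mx2 stands at 158 in saline 12 h against 36.9 in baseline and Ccl7 at 229 in saline 12 h against 16.5 in baseline, and the pairs close towards the right of each row.

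Stress genes differed singly rather than as lists. In the integrated stress response, which slows protein synthesis and switches on ATF4 targets, the median was 0.24 (-0.56 on the spike-in scale), with 1 of 16 genes at least 2-fold higher. The secreted stress hormone gene Gdf15 had a scaled signal of 338 in the saline 12 h array, against 26.6 in the baseline array, and was 12.7-fold higher (9.61 to 16.8); its probe lies on chromosome 8, 73153293 to 73153352 in mm9. On the other arrays Gdf15 had 131 after noise only, 478 for dexamethasone 12 h, 108 for saline 24 h and 750.0 for dexamethasone 24 h. Ddit4, an inhibitor of the growth kinase mTOR, stood at 1.00, just short of the line (2365 in saline 12 h against 1184 in baseline). Cebpb and the glutathione-degrading Chac1 stood at 0.86 and 0.79, and Slc7a11, the cystine importer, was 2.7-fold lower (20.5 in saline 12 h against 55.6 in baseline), with 1 of its 2 other probes in the same direction. Gdf15 stood far above the rest of its list.

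Among antioxidant enzymes the median was 0.03, with 2 of 19 genes at least 2-fold lower. Hmox1, which breaks down haem, had 81.1 in the saline 12 h array, against 612 in the baseline array, and was 7.54-fold lower (5.72 to 9.96). It was below baseline on every noise-exposed array, at 40.6 after noise only, 75.4 for dexamethasone 12 h, 45.7 for saline 24 h and 205 for dexamethasone 24 h. Catalase, Cat, had 164 in saline 12 h against 374 in baseline, while the peroxidase gene Gpx4 was 1.89-fold higher (11579 in saline 12 h against 6134 in baseline). Chaperones of the endoplasmic reticulum had a median of 0.25, which turned to -0.55 on the spike-in scale and to -0.072 after quantile normalization; Sdf2l1 led at 0.94 and Pdia4 was lowest at -0.80. Heat shock protein genes lay at a median of 0.12 (-0.68 on the spike-in scale), between -0.80 for Hspa4l and 0.79 for Hspa1b, and none of 17 was 2-fold apart. Apoptosis regulators had a median of 0.07 and likewise none of 23 was 2-fold apart, from the survival gene Bcl2 at -0.95 to its antagonist Bad at 0.81. Hypoxia and glycolysis genes had a median of 0.01, and Ankrd37 was the only gene of the 15 at least 2-fold higher (73.3 in saline 12 h against 33.8 in baseline).

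Clock genes lay below baseline, 14 of 20, with a median of -0.29, while 55.2% of all genes lay above baseline. The clock runs on CLOCK and ARNTL, which switch on Per and Cry repressors and the output factors Dbp, Tef and Hlf, and many tissues carry it. The genes above baseline included the activator Arntl at 0.60 (153 in saline 12 h against 101 in baseline) and the late repressors Cry1 at 1.38 (16.4 in saline 12 h against 6.3 in baseline) and Nfil3 at 0.79 (279.5 in saline 12 h against 162 in baseline). Cry1 was 2.6-fold higher (1.88 to 3.59), the single clock gene past 2-fold, from a dim signal. The output genes lay lower: Tef at -0.88 (1511 in saline 12 h against 2787 in baseline, 1 of 3 other probes in the same direction), Hlf at -0.66 (68.1 in saline 12 h against 108 in baseline) and Dbp at -0.44 (918 in saline 12 h against 1242 in baseline). The repressor of Arntl, Nr1d1, stood at -0.62, Per2 at -0.36 and Per1 at 0.14, with the other probe of each Per gene on the opposite side of 0. The list median over baseline was -0.24 for dexamethasone 12 h, 0.91 for noise only, 0.82 for saline 24 h and 0.11 for dexamethasone 24 h. The labels give no hour of day for any group.

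Targets of the glucocorticoid receptor had a median of -0.08 in these mice without dexamethasone, with 0 of 19 genes at least 2-fold higher and 1 lower. The receptor's co-chaperone gene Fkbp5 stood at -0.40 (268 in saline 12 h against 354 in baseline) and Tsc22d3, known as GILZ, at -0.25 (1621 in saline 12 h against 1925 in baseline). The gene past 2-fold was Zbtb16, at 174 in saline 12 h against 378 in baseline and 2.17-fold lower (1.64 to 2.86), with its other probe in the same direction.

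**Figure D3:**
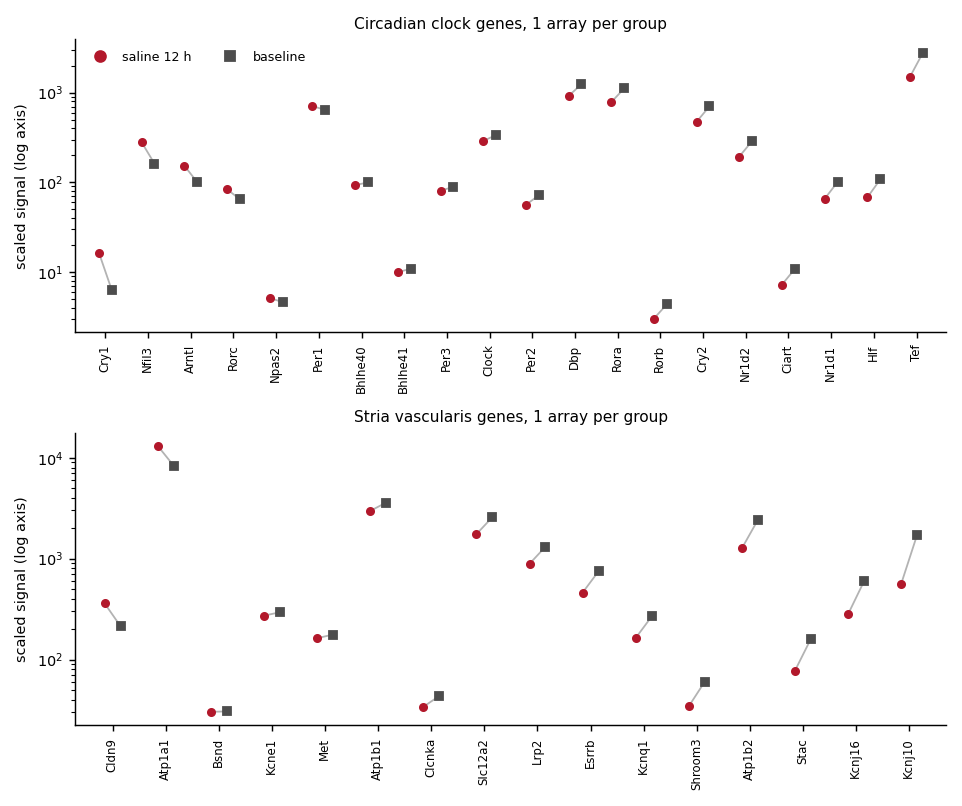
Scaled signal (log axis) of circadian clock genes (top) and stria vascularis genes (bottom) in the saline 12 h array (circles) and the baseline array (squares), 1 array per group, genes ordered by difference. Cry1 is the widest pair above baseline among clock genes, and Kcnj10, at 565 in saline 12 h against 1729 in baseline, the widest below it among strial genes.

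Genes of lipid synthesis and storage were lower 12 h after noise. Of 22 genes of sterol and fatty acid synthesis 18 lay below baseline, with a median of -0.42, though 1 passed 2-fold. It was the fatty acid desaturase gene Scd1, at 325 in saline 12 h against 1456 in baseline and 4.48-fold lower (3.4 to 5.92). Its brain-type relative Scd2 stood at -0.89 (3402 in saline 12 h against 6287 in baseline), and the sterol pathway enzyme genes Nsdhl, Hmgcs1 and Sqle at -0.86, -0.86 and -0.83, the other Hmgcs1 probe lying above 0. Adipocyte genes had a median of -0.66, with 6 of 16 at least 2-fold lower and 0 higher, against 3.42% lower among all genes. Pck1, which feeds glycerol synthesis in fat, had 31.8 in saline 12 h against 231 in baseline (7.27-fold lower, 5.5 to 9.62), and Plin1, a lipid droplet coat protein gene, 26.2 in saline 12 h against 110.2 in baseline. The brown fat genes Ucp1 and Cidea had 289 in saline 12 h against 1005 in baseline and 852 in saline 12 h against 2446 in baseline, 3.48-fold and 2.87-fold lower, and Cidec 205 in saline 12 h against 530.0 in baseline. In RNA of whole tissue, fewer cells of a type and less RNA per cell cannot be told apart, here and for every cell type list that follows.

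Ribosomal protein genes were all above baseline, 24 of 24 against 55.2% of all genes, with a median of 0.60 and none past 2-fold. The median was -0.20 on the spike-in scale, 0.133 after quantile normalization and 0.119 after normexp. The list ran from Rpl18 at 0.98 and Rps3 at 0.97 to lower values, and Rps2 stood at 0.95. Subunits of oxidative phosphorylation had a median of 0.26, which turned to -0.54 on the spike-in scale and to -0.12 after quantile normalization. The gene past 2-fold, Cox6a2 (5102 in saline 12 h against 1543 in baseline), and the next, Cox7a1 at 0.98, encode the forms of 2 cytochrome oxidase subunits that heart and skeletal muscle use. Skeletal muscle genes were also higher in the saline 12 h array, 16 of 17 fast-fibre genes at least 2-fold, and their part in the result was not tested.

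On the percentile scale hair cell genes stayed close to baseline as a group. Genes of the hair bundle, the mechanosensitive organelle, had a median of -0.12 (-0.91 on the spike-in scale). Of 20 genes 1 was at least 2-fold lower, against 3.42% of all genes, and 0 higher. That gene was Whrn, a scaffold of the bundle, at 295 in saline 12 h against 741 in baseline and 2.51-fold lower (1.9 to 3.31); its other probe had the same direction. The bundle myosin gene Myo7a had 98.9 in saline 12 h against 105 in baseline, a difference of -0.09. Adgrv1 and Pcdh15, which encode links between stereocilia, stood at -0.90 and -0.73, but their other probes lay on the opposite side of 0 and the signals were dim.

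Other hair cell genes had a median of -0.04 (-0.84 on the spike-in scale). The nicotinic receptor subunit gene Chrna9, through which olivocochlear nerve fibres act on outer hair cells, was 4.57-fold higher (3.44 to 6.07) at 102 in saline 12 h against 22.3 in baseline, with its other probe in the same direction. The partner subunit gene Chrna10 was not among the 6 widest apart. Keratin, cornified envelope and skeletal muscle genes were also higher on this array, and the part of neighbouring tissue in the Chrna9 difference was not tested. The transcription factor gene Pou4f3 and Slc17a8, the vesicular glutamate transporter of inner hair cells, were 2.28-fold and 2.21-fold lower (5.45 in saline 12 h against 12.4 in baseline and 25.1 in saline 12 h against 55.4 in baseline). Otof, which drives transmitter release at the same synapse, stood at 0.01. The Pou4f3 signal in the saline 12 h array lay close to 2.56, the lowest called well above background there, and Pou4f3 had no other measured probe.

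Tectorial membrane and supporting cell genes had a median of -0.21, with 1 of 16 at least 2-fold higher and 0 lower. The tectorial membrane gene Tecta had 4.63 in saline 12 h against 5.51 in baseline, close to the dimmest signals called above background. The glutamate transporter Slc1a3, used by supporting cells and by glia of the cerebellum, was 2.86-fold higher (935 in saline 12 h against 327 in baseline), and 14 of 22 cerebellar neuron genes were at least 2-fold higher too; their part in this was not tested.

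Most genes of the lateral wall lay below baseline. Those of the stria vascularis had a median of -0.56, with 14 of 17 below baseline and the highest at 0.92. Of the 17, 3 were at least 2-fold lower and 0 higher, against 3.42% lower among all genes. The potassium channel gene Kcnj10, which sets the potential of the strial intermediate cells, had 565 in the saline 12 h array, against 1729 in the baseline array, and was 3.06-fold lower (2.32 to 4.03); its probe lies on chromosome 1, 174304062 to 174304121 in mm9. Its partner Kcnj16 had 282 in saline 12 h against 598 in baseline and the adaptor gene Stac 77.9 in saline 12 h against 161 in baseline. Kcnq1, the channel that secretes potassium into the cochlear duct, had 164 in saline 12 h against 267 in baseline, a difference of -0.71 with both other probes in the same direction. The sodium pump subunit gene Atp1b2 stood at -0.93. The melanocyte list, which includes the strial intermediate cells, had a median of -0.34, with Trpm1 3.4-fold (2.57 to 4.48) and the endothelin receptor gene Ednrb 2.34-fold lower; the pigment enzyme gene Dct stood at -0.59 (2950.0 in saline 12 h against 4437 in baseline). Genes of spiral ligament fibrocytes and root cells had a median of -0.37, with none of 12 past 2-fold and the transporter genes Slc13a3 and Slc4a11 lowest at -0.89 and -0.89. Summed signals of the strial list were nearly level, 22416 in saline 12 h against 22563 in baseline. The ligament list had 44076 in saline 12 h against 45730 in baseline, and the melanocyte list 4340 in saline 12 h against 6375 in baseline. Schwann cell and oligodendrocyte lists were lower on the same array, with medians of -0.64 and -0.81, and their part in the strial result was not tested. The stria and melanocyte medians of the dexamethasone 12 h array, on the same slide, were -0.50 and -0.59, and those of the saline 24 h array 0.27 and 0.11.

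The lists of sympathetic, pain-sensing and spiral ganglion neurons lay below baseline, while the cerebellar neuron and glutamate receptor lists lay above it. Catecholamine and sympathetic neuron genes had a median of -2.25, with 11 of 16 at least 2-fold lower and 0 higher. Dbh, which makes noradrenaline from dopamine, had a scaled signal of 3.4 in the saline 12 h array, against 1199 in the baseline array, at chromosome 2, 27038665 to 27038724 in mm9; the difference of -8.46 was the widest of all measured genes. The Dbh signal in the saline 12 h array lay close to 2.56, the lowest signal called well above background there, and its other probe had the same direction. The noradrenaline transporter Slc6a2 had 6.04 in saline 12 h against 251 in baseline and the lineage factor Phox2a 4.69 in saline 12 h against 107 in baseline. Ddc and Th, which make dopamine, had 48.0 in saline 12 h against 646 in baseline and 136 in saline 12 h against 963 in baseline. These 5 genes were well above background on both arrays by the scanner's flag, and 15 of 16 genes of the list lay below baseline. Gch1, which makes the cofactor of Th, lay above baseline at 0.91, and it serves other cells as well.

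Genes of sensory ganglia and nociceptors had a median of -1.34, with 15 of 20 at least 2-fold lower. The sodium channel genes Scn10a and Scn11a of pain fibres had 41.3 in saline 12 h against 360.0 in baseline and 49.6 in saline 12 h against 238 in baseline, and the itch and pain receptor gene Mrgprd 7.74 in saline 12 h against 65.6 in baseline. The lineage factor Prdm12 had 7.19 in saline 12 h against 60.1 in baseline, and the irritant channel Trpa1 7.65 in saline 12 h against 60.3 in baseline, and with Mrgprd these genes were between 7.89-fold and 8.48-fold lower. Trpv1, the heat channel, was above background only in the baseline array and was at least 7.91-fold lower. The labels do not describe the limits of the dissection. On the other arrays Dbh had 13.2 after noise only, 17.7 for dexamethasone 12 h, 2.47 for saline 24 h and 1339 for dexamethasone 24 h, and Scn10a 312, 257, 83.6 and 583 in the same order. Dexamethasone 24 h was the array closest to baseline for Dbh.

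**Figure D4:**
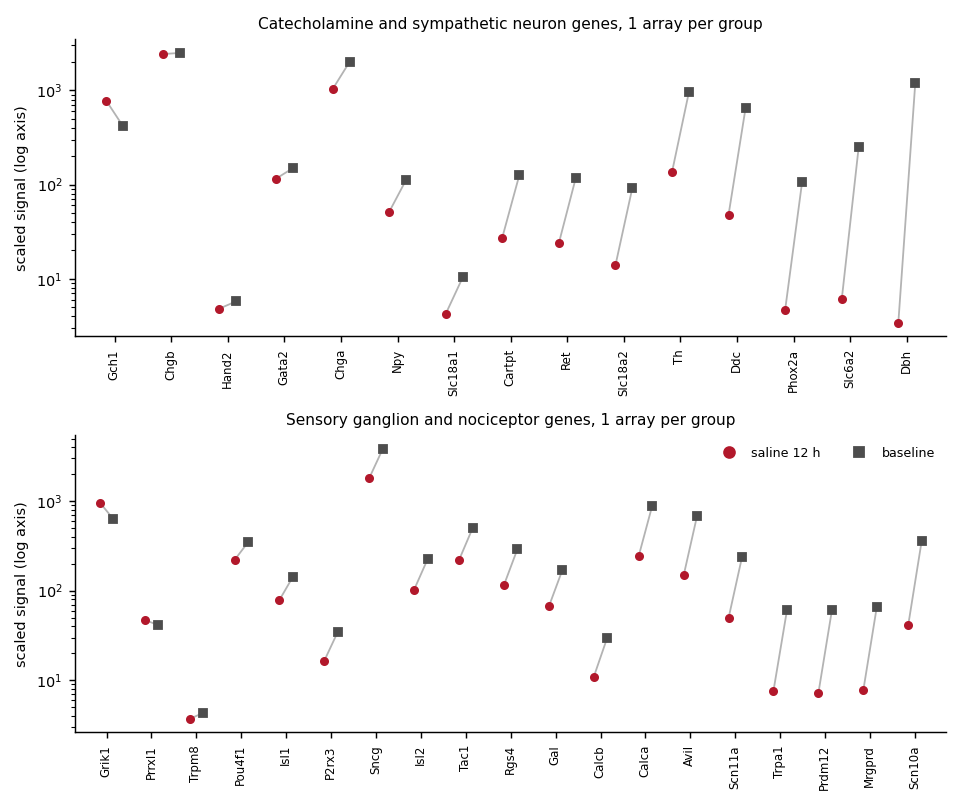
Scaled signal (log axis) of catecholamine and sympathetic neuron genes (top) and sensory ganglion and nociceptor genes (bottom) in the saline 12 h array (circles) and the baseline array (squares), 1 array per group, genes ordered by difference. The squares lie above the circles for most genes of both rows, with Dbh at 3.4 in saline 12 h against 1199 in baseline.

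The median of the spiral ganglion neuron list was -0.64, with 20 of 24 below baseline, 5 at least 2-fold lower and 1 higher. The intermediate filament gene Prph, which marks type II neurons and also peripheral sensory and sympathetic neurons, had 268 in saline 12 h against 1075 in baseline and was 4.02-fold lower (3.04 to 5.3). The vesicular transporter Slc17a7 had 21.8 in saline 12 h against 74.8 in baseline, the neurofilament gene Nefm 2268 in saline 12 h against 5647 in baseline and the ubiquitin hydrolase Uchl1 5911 in saline 12 h against 13288 in baseline, 3.43-fold, 2.49-fold and 2.25-fold lower. The tubulin gene Tubb3 had 774 in saline 12 h against 1733 in baseline, while Nefl, the light neurofilament, stood at -0.65 (4290.3 in saline 12 h against 6742 in baseline). Syt2, a calcium sensor of fast synapses, was the gene at least 2-fold higher (74.0 in saline 12 h against 34.2 in baseline), with 1 of 2 other probes in the same direction. The sympathetic list was lower on the same array, its signals summing to 4685 in the saline 12 h array and 8806 in the baseline array, and its part in the spiral ganglion result was not tested.

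Genes of transmitter release had a median of -0.55, with 5 of 24 at least 2-fold lower and 3 higher. The vesicle protein gene Sv2c, the membrane fusion gene Stx1a and the glutamate transporter Slc17a6 had 145 in saline 12 h against 503 in baseline, 11.9 in saline 12 h against 35.6 in baseline and 92.1 in saline 12 h against 267 in baseline. The priming factors Unc13a and Unc13c went the other way (20.5 in saline 12 h against 7.22 in baseline and 87.0 in saline 12 h against 33.4 in baseline), while the fusion gene Vamp1 was 2.62-fold lower. Glutamate receptor genes had a median of 0.30 (-0.49 on the spike-in scale), with 5 of 23 higher and 3 lower, against 4.41% and 3.42% of all genes. The NMDA receptor subunit genes Grin2c and Grin2a were 4.49-fold and 4.5-fold higher (541 in saline 12 h against 120.4 in baseline and 32.0 in saline 12 h against 7.11 in baseline), the kainate subunit Grik2 3.2-fold and the metabotropic Grm4 2.92-fold, while Grm3 was 2.59-fold lower. Granule cells of the cerebellum also use Grin2c, Grin2a, Grm4 and Unc13c, Grm4 being in both lists, and the cerebellar list summed to 17769 in the saline 12 h array and 8826 in the baseline array; its part was not tested.

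Myelin and glial genes were lower as well. Schwann cell genes had a median of -0.64, with 5 of 21 at least 2-fold lower and 0 higher, against 3.42% lower among all genes. Mag had 334 in saline 12 h against 919 in baseline, Ugt8a 93.4 in saline 12 h against 199.9 in baseline and Cnp 529.7 in saline 12 h against 1074 in baseline, all genes of the myelin membrane or its lipids, and Cdh19 of Schwann cell precursors 7.33 in saline 12 h against 20.3 in baseline. The other probe of Mag lay on the opposite side of 0. Mag is shared with oligodendrocytes of the central nervous system, whose own list had a median of -0.81 with 6 of 15 lower, led by Mobp (163 in saline 12 h against 790.2 in baseline), Olig1 (49.4 in saline 12 h against 183 in baseline) and Olig2 (5.1 in saline 12 h against 15.3 in baseline). Potassium channel genes outside the stria had a median of -0.38; 5 of 24 were at least 2-fold lower, among them the axonal Kcna2 (37.1 in saline 12 h against 125 in baseline), Kcnh2 (23.3 in saline 12 h against 73.5 in baseline) and Kcnc2 (31.0 in saline 12 h against 78.6 in baseline).

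Many of the widest differences were in genes known from mucosa, skin, muscle and brain rather than from the cochlea. Among genes at or above the median signal, the 10 highest were Muc5b, Sbpl, Tff2, Krt16, Lipf, Pcp2, Dmbt1, Gp2, Bpifb1 and Agr2, most of them genes of secretory epithelia. The 10 lowest were Ttr, Glra1, Ddc, Scn10a, Hmox1, Th, Tlx2, Scg2, Mobp and Scn11a, most of them genes of neurons and glia. Muc5b, a secreted mucin, had 7132 in the saline 12 h array, against 113 in the baseline array, and Dmbt1, a mucosal defence protein gene, 13997 in saline 12 h against 520.4 in baseline. Both lay high on the dexamethasone 12 h array, at 12239.5 and 38524, and low on the saline 24 h array, at 24.1 and 30.4. The gland list summed to 89639 in the saline 12 h array and 41120.4 in the baseline array, with a median of 1.24 and 13 of 24 genes at least 2-fold higher; the airway secretory gene Bpifa1 stood at -0.04 and Pigr, which carries antibody across epithelia, was 2.29-fold lower (4654 in saline 12 h against 10676 in baseline).

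Keratin genes had a median of 1.46, with 14 of 22 at least 2-fold higher, and cornified envelope genes of the skin surface 1.97, with 16 of 18. Among all genes 4.41% were at least 2-fold higher. Krt6b had 862 in saline 12 h against 4.12 in baseline and Krt16 1494 in saline 12 h against 42.3 in baseline, both keratins of stressed or wounded epidermis, and Krt13 of mucosal lining 119 in saline 12 h against 4.74 in baseline. Krt76 was at least 273-fold higher, from a level not above background at baseline. The epidermal genes Calm4, Hrnr and Crct1 had 678 in saline 12 h against 107 in baseline, 132 in saline 12 h against 26.2 in baseline and 1033 in saline 12 h against 209.7 in baseline. The cornified list summed to 9889 in the saline 12 h array and 2887 in the baseline array, and the skin markers Lor and Krt10 were above background on both arrays at 2044 in saline 12 h against 732 in baseline and 1785 in saline 12 h against 459.7 in baseline.

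Skeletal muscle genes were higher in both fibre types, 16 of 17 fast genes (median 1.83) and 9 of 12 slow genes (median 1.91) at least 2-fold, against 4.41% of all genes. The fast-fibre actinin gene Actn3 had 969 in saline 12 h against 144 in baseline, 6.74-fold higher (5.11 to 8.89), and Mybpc2 799.9 in saline 12 h against 163 in baseline. The slow myosin gene Myh7 had 993 in saline 12 h against 59.3 in baseline, 16.8-fold higher (12.7 to 22.1), and the slow troponins Tnnc1 and Tnni1 89.7 in saline 12 h against 3.86 in baseline and 555 in saline 12 h against 70.7 in baseline. Summed over the list, fast-fibre signal was 139721 in the saline 12 h array and 41325 in the baseline array. Of 16 muscle atrophy genes 3 were at least 2-fold higher and 0 lower, against 4.41% and 3.42% of all genes. Trim63, a ubiquitin ligase of wasting muscle, was 2.7-fold higher (85.0 in saline 12 h against 31.4 in baseline). Its companion Fbxo32 was not among the 6 widest apart. Myog and Mstn differed by 1.61 and 1.36, from dim signals. The list median was 0.05, and the part of the amount of muscle tissue in these differences was not tested. Smooth muscle genes had a median of 0.04, with Des, which skeletal muscle also uses, at 364 in saline 12 h against 102 in baseline, and endothelial genes one of -0.03, with none of 13 past 2-fold.

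Brain genes went both ways. Cerebellar neuron genes had a median of 1.60, with 14 of 22 at least 2-fold higher, against 4.41% of all genes. The Purkinje cell gene Pcp2 had 3269 in saline 12 h against 120.4 in baseline. The homeobox gene En2 had 313 in saline 12 h against 24.7 in baseline. The granule cell receptor subunit Gabrd had 586 in saline 12 h against 69.6 in baseline. Gabra6 and Cbln1 were higher too, at 308 in saline 12 h against 48.3 in baseline and 1584 in saline 12 h against 505 in baseline. The list of choroid plexus and pituitary genes had a median of -0.15, with 1 of 13 at least 2-fold higher, 6 lower and 5 above baseline. The members at least 2-fold lower were genes of the choroid plexus, which makes cerebrospinal fluid: Ttr, the thyroxine carrier, had 120.0 in the saline 12 h array, against 4568 in the baseline array, and Folr1, Enpp2, Kl and Kcnj13 were 5.13-fold, 3.97-fold, 3.35-fold and 3.18-fold lower. On the other arrays Ttr had 108 after noise only, 139 for dexamethasone 12 h, 151 for saline 24 h and 4500.4 for dexamethasone 24 h, so that baseline and dexamethasone 24 h stood apart from the other 4. The pituitary hormone gene Prl was 2.82-fold higher (4060.4 in saline 12 h against 1437 in baseline). The inhibitory glycine receptor gene Glra1 of the brainstem and spinal cord, among the 10 lowest, had 24.4 in saline 12 h against 507 in baseline. The part that these tissues have in the differences of shared genes was not tested.

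**Figure D5:**
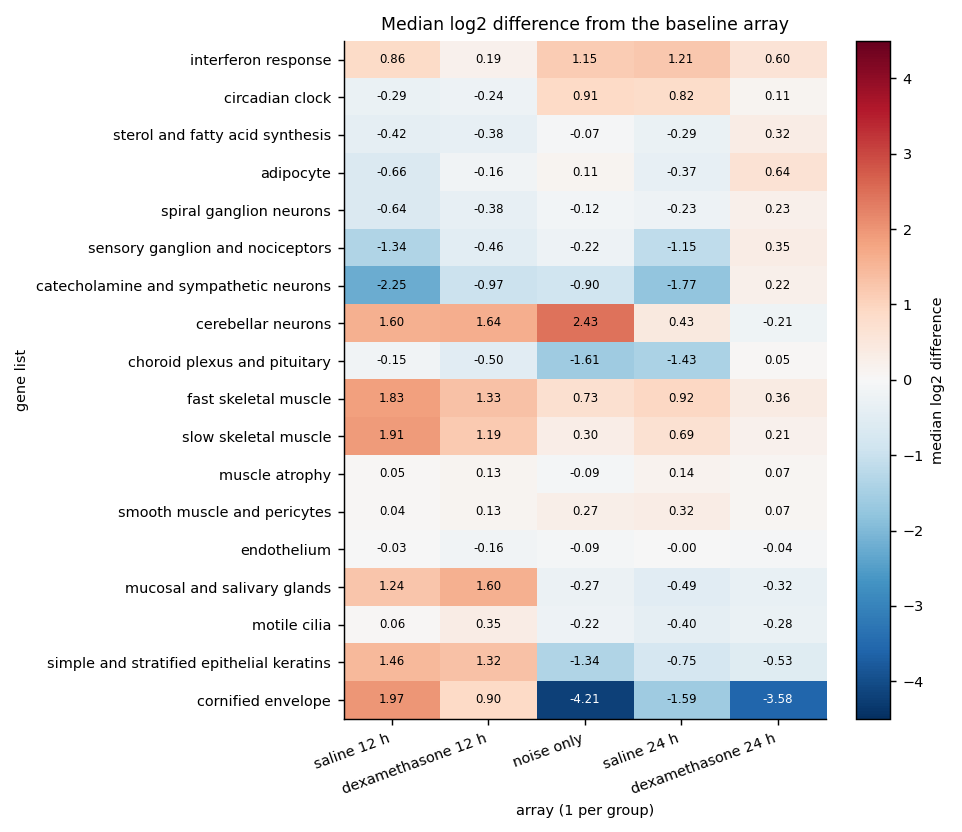
Median log2 difference from the baseline array for 18 gene lists (rows) in the saline 12 h array and the 4 other arrays (columns), 1 array per group, with red for higher and blue for lower than baseline. All columns share the baseline array. The gland and keratin lists are above baseline in both 12 h arrays, which lie on 1 slide, and below it in the other 3.

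The medians of the blood and marrow lists lay slightly above 0, and the eosinophil genes stood out with wider differences. The macrophage and erythroid medians, 0.11 and 0.08, were close to the 0.06 of all genes. Neutrophil genes had a median of 0.34 (-0.45 on the spike-in scale, 0.091 after quantile normalization), with 19 of 22 above baseline, against 55.2% of all genes, and none past 2-fold; the granule gene Ltf stood at 0.98 and Camp at 0.67. In the list of eosinophils, mast cells and basophils 7 of 16 were at least 2-fold higher, with a median of 0.70 that turned to -0.10 on the spike-in scale. The eosinophil granule genes Prg2 and Prg3 had 6181 in saline 12 h against 1088 in baseline and 774 in saline 12 h against 138 in baseline, 5.68-fold (4.31 to 7.5) and 5.6-fold higher, Epx 473 in saline 12 h against 117 in baseline and the ribonuclease gene Ear1 1956 in saline 12 h against 359.9 in baseline. On the other arrays Prg2 had 280.5 after noise only, 930.0 for dexamethasone 12 h, 904 for saline 24 h and 324 for dexamethasone 24 h, all below baseline. The 7 higher genes were Prg2, Prg3, Epx, Ear1, Ear2, Ear6 and the eosinophil receptor gene Il5ra, and the mast cell genes Cpa3 and Cma1 stood at -0.15 and 0.35.

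Macrophage and monocyte genes had a median of 0.11 (-0.69 on the spike-in scale), with lysozyme Lyz2 2.33-fold higher (38220.0 in saline 12 h against 16376 in baseline) and the tissue macrophage genes Cd163 and Cx3cr1 at -0.83 and -0.66. The closely related Lyz1 of the gland list was also higher (14685 in saline 12 h against 3287 in baseline), and probes of the 2 genes can share signal. B cell genes had a median of 0.38 (-0.42 on the spike-in scale), with the precursor gene Vpreb2 past 2-fold (53.5 in saline 12 h against 25.3 in baseline) and Vpreb1 and Igll1 at 0.86 and 0.84. T and NK cell, erythroid, platelet and cell division genes had medians of 0.19, 0.08, 0.19 and 0.20, and none of their members was 2-fold apart; on the spike-in scale these medians were -0.61, -0.71, -0.61 and -0.60. Osteoblast and osteoclast genes lay at 0.12 and 0.15 (-0.68 and -0.65 on the spike-in scale), again with none past 2-fold.

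Matrix, junction and channel genes showed single differences. Collagen and cartilage genes had a median of -0.07; Col15a1 of vessel and nerve basement membranes was 3.87-fold lower (12.5 in saline 12 h against 48.2 in baseline) and Col17a1, which anchors epidermis, 2.45-fold higher (54.6 in saline 12 h against 22.3 in baseline). Among matrix proteases and their inhibitors (median 0.05), Timp4 was 2.03-fold higher, with 1 of 2 other probes in the same direction, and the aggrecan-cleaving Adamts4 2.24-fold lower, with Timp1 at 0.85. Junction genes had a median of 0.14, with 1 of 23 at least 2-fold higher and 0 lower; the cochlear connexins Gjb2 and Gjb6 stood at -0.45 and -0.32. Of aquaporins and sodium channels the gland aquaporin Aqp5 was 3.72-fold higher (865 in saline 12 h against 233 in baseline) and Scn2a of central axons 2.58-fold, while Scn3a was 3.54-fold lower. Motile cilia genes had a median of 0.06, with Rsph4a the gene past 2-fold (5.85 in saline 12 h against 14.2 in baseline).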

How the data were processed

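Of the 6 Agilent arrays (one colour, Cy3), 2 form this comparison, saline 12 h and baseline. The deposited intensity values come, per the file headers, from Feature Extraction 10.10.1.1, which removed background and gave each spot an error with a preset multiplicative part of 10%; the headers place probes on mm9. The authors' series matrix is on a log2 scale: on each array 100% of probes lay within 0.01 of log2 signal less 1 constant, with column medians of -2.86 (saline 12 h) and -2.96 (baseline), so scale and direction were found from the values.

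Spots marked as outliers were left out, spots of a probe were averaged as log2, and the 75th percentile of the 56605 probes (controls excluded) was taken off array by array. A gene took its brightest probe over the 6 arrays; 32994 probes were named through RefSeq accessions (GRCm38.p6, names and promoters only) and 1535 changed name. Genes well above background on both arrays were kept and called at 2-fold. Probes spotted 10 times had a median SD of 0.0376 (saline 12 h) and 0.0387 (baseline) on log2; the number of arrays limits the precision. No test was run, since 1 array per group leaves no spread, and p-values are absent.

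The members, 59 gene lists and alternatives were chosen with earlier results of these data known. Named genes were the 10 highest and 10 lowest at or above the median signal without clone names, from each list at most 6 genes by size and 4 by bound, and Fos, Egr1, Atf3, Junb, Il6, Ccl2, Ccl7, Cxcl10, Per1, Per2, Dbp, Arntl, Fkbp5, Tsc22d3, Myo7a, Slc26a5, Otof, Tecta, Coch, Kcnq1, Nefl and Prph; further names (promoters, markers, exceptions to a list's direction, low counts named in full) were chosen after their values were seen. Some genes under this rule are not reported here. The calling step was tested on simulated data. The tools were R 4.3.3 with limma 3.58.1 (quantile and normexp), Python 3.11.15, pandas 2.3.3, numpy 2.4.6 and matplotlib 3.10.9.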

Additional observations from a re-analysis of the deposited data

How the results depend on the processing

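The counts of 1072 higher and 831 lower genes stayed within 1.5 times under quantile normalization (871 higher and 1049 lower), a percentile taken over detected probes, centring on the median gene, the series matrix values and the mean over a gene's probes. The series matrix holds the same signals less 1 constant per array, so its counts are no separate check. They moved further to 499 higher and 488 lower after normexp with quantile normalization, 237 higher and 7143 lower on the E1A spike-in scale, 3889 higher and 1581 lower without the filter on dim probes, 361 higher and 298 lower among genes at or above the median signal, 3569 higher and 2608 lower at 1.5-fold and 343 higher and 208 lower at 3-fold. Without members of the neighbouring tissue lists, an alternative added after seeing the data, they were 984 higher and 823 lower. Of 59 lists 39 had a median above 0, and on the spike-in scale 7; those were the interferon, cerebellar, fast and slow muscle, gland, keratin and cornified lists. The other 32 turned negative on that scale; they were -0.29 for chemokines, -0.34 for immediate early genes, -0.47 for NF-kB and adhesion, -0.36 for antigen presentation, -0.56 for the integrated stress response, -0.55 for endoplasmic reticulum chaperones, -0.54 for oxidative phosphorylation, -0.20 for ribosomal proteins, -0.49 for glutamate receptors, -0.45 for neutrophils, -0.10 for eosinophils, mast cells and basophils and -0.42 for B cells, and between -0.80 and -0.60 for the other 20. Under quantile normalization 11 of the 39 turned negative, the medians of endoplasmic reticulum chaperones (-0.072) and oxidative phosphorylation (-0.12) and 9 others between -0.13 and -0.034. After normexp 10 did, oxidative phosphorylation (-0.10) among them, after centring on the median gene 7 and among genes at or above the median signal 6. Ribosomal proteins stayed positive but moved to 0.133 under quantile normalization and 0.119 after normexp, and neutrophils to 0.091 and 0.101. None of the 163 named genes at least 2-fold apart changed sign under any of the 9 alternatives that gave it a value. Several alternatives could not change a sign, so this is no measure of stability. The spike-in shift of 0.80 and the centring shift of 0.06 are smaller than a 2-fold difference. The series matrix and the filter alternatives use the same signals. The spike-in scaling subtracts a constant from every difference, and the threshold and filter alternatives change which genes are counted; the cause of the other moves was not tested. Signals near background limit the dim genes named here, such as Dbh in the saline 12 h array. No paired analysis was possible because each group has a single array.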

Other observations

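The families in this paragraph and the next were picked by name after their values were seen. Small nuclear and nucleolar RNAs guide the modification and processing of ribosomal RNA or take part in splicing. Of 19 of their genes measured on both arrays, 16 lay above baseline, against 55.2% of all genes. Of the 19, 7 were at least 2-fold higher and 3 lower, against 4.41% and 3.42% of all genes. The median was 0.95 (0.15 on the spike-in scale). The 3 lower genes were the U1 spliceosomal RNA genes Rnu1a1 (3218 in saline 12 h against 7235 in baseline), Rnu1b6 (2079 in saline 12 h against 5405 in baseline) and Rnu1b1 (1809 in saline 12 h against 4718 in baseline), whose near-identical copies can share signal. Snora73a had a scaled signal of 5871 in the saline 12 h array, against 1882 in the baseline array, Rnu3b1 1792 in saline 12 h against 529 in baseline and Snord17 592 in saline 12 h against 191 in baseline. The family's median over baseline was 0.53 for dexamethasone 12 h and -0.24 for noise only, and these differences share the baseline array. Of 57 histone gene symbols 15 were at least 2-fold higher and 3 lower, against 4.41% and 3.42% of all genes. Their median of 0.68 turned to -0.12 on the spike-in scale. Some symbols are an older and a newer name of 1 gene, as with H1fx and H1f10. Many histone copies are near-identical, so their probes can share signal and are not separate evidence. The linker histone gene H1f3 had 533 in saline 12 h against 134 in baseline. The medians of the histone genes were -0.11 for dexamethasone 12 h and -0.52 for noise only, while the cell division list stood at 0.20 in the saline 12 h array.

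All 8 measured eosinophil-associated ribonuclease genes were at least 2-fold higher than baseline, against 4.41% of all genes. Their median was 2.13 (1.34 on the spike-in scale). Ear12, not in the eosinophil list, had 2696 in saline 12 h against 589 in baseline, Rnase2a 3249 in saline 12 h against 749 in baseline and Ear10 1722 in saline 12 h against 367 in baseline. The genes of this family are near-identical, so their probes can share signal and are not separate evidence. The family's median was -0.44 for dexamethasone 12 h and -1.76 for noise only.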
